A study of Mus musculus with 16 samples.

Results

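CD8+ T cells of accepted kidney allografts were compared with CD8+ T cells of the spleens of recipients at 3 weeks after transplantation. The recipients were C57BL/6J (B6) mice of wild-type genotype that carried a DBA/2J kidney, a fully mismatched graft that this strain pair accepts without immunosuppressive drugs. The graft and spleen groups compared, at 3 weeks and at 1 week, share this transplant, and only male mice were used. Background shares came from other mice. These were B cells of the spleen of naive B6 mice with no transplant and myeloid cells of kidneys under rejection at 1 week, for which the study names B6 kidneys in DBA/2J recipients and the labels the strain C57BL/6J, all of wild-type genotype. Viable CD45+ leukocytes were sorted and sequenced as single cells in droplets, with a unique molecular identifier (UMI) added to every captured transcript so that copies could be counted once. The graft was perfused with and digested in collagenase and DNase and ground, whereas the spleen was only ground and depleted of red cells, so organ and preparation cannot be told apart. Cells of donor and recipient origin were not separated here.

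The matrices that the authors had annotated as CD8+ T cells held 22206 graft cells and 5891 spleen cells at 3 weeks, from 5 library tags each. A cell was kept when it had at least 1 UMI of Cd8a or Cd8b1 and no UMI of Cd4, Cd79a, or Lyz2. This kept 18304 graft cells (82.4%) and 2324 spleen cells (39.5%), or 20628 of the 28097 cells of both matrices and of the 72639 cells of all CD8+ T cell matrices of the series. A CD8 UMI was present in 21487 graft cells and in only 2757 spleen cells before the other markers were considered, so the authors' annotation and the gate differed more for the spleen than for the graft. Each tag was taken as 1 mouse. Where tags did not mark separate mice, the p-values measure only the spread between tags. Summed UMIs ranged from 7379166 to 9624919 per graft library (median 9238287) and from 1655201 to 2598832 per spleen library (median 1938972). The median gated cell held 2185 UMIs in the graft and 4141 UMIs in the spleen. No more than 7 cell barcodes were shared by any pair of libraries of a tissue and no more than 1 by any graft and spleen pair. The first tag of each tissue had the deepest cells, at a median of 2980 and 5260 UMIs.

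Naive CD8+ T cells recirculate between blood and lymphoid organs, guided by CCR7 (Ccr7) and the sphingosine receptor S1PR1 (S1pr1), under transcription factors such as TCF1 (Tcf7), LEF1 (Lef1), and KLF2 (Klf2). After activation they acquire granzymes, perforin, and interferon-γ, and some of them settle in tissues as resident memory cells that hold on to epithelium and matrix through integrins such as CD103 (Itgae) and CD49a (Itga1). Under lasting antigen exposure CD8+ T cells express inhibitory receptors such as PD-1 (Pdcd1) and LAG3 (Lag3) and the transcription factor TOX (Tox). CD8+ cells with CD122 (Il2rb) and the secreted protein FGL2 (Fgl2) have been described as regulatory.

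The gated cells of both tissues carried the markers of CD8+ T cells. Cd3d, Cd3e, Cd3g, and Trac, components of the T cell receptor complex that the gate did not use, together reached 5164 to 5527 CPM (a gene's UMIs relative to the library total, on the usual CPM scale) in the graft and 1912 to 2129 CPM in the spleen. Summed markers of other cells were unequal between the tissues for some lists. Counts of genes in this paragraph are calls with plain library totals as the scaling. Over all 10278 genes tested in that way, 49.4% were higher in the graft and 15.5% were lower. The lists are short, so no result is read from these counts. The NK cell list had 3 of 5 tested genes higher and 1 gene lower in the graft, and summed to 474 to 1187 CPM there and 82.6 to 163 CPM in the spleen. Its defining gene Ncr1 was at 0.645 CPM in the graft and 0.248 CPM in the spleen, while Fcer1g and Tyrobp, shared by NK, myeloid, and some activated T cells, stood at 499 and 41.9 CPM against 9.13 and 8.06 CPM. The γδ T cell list had 3 of 4 tested genes higher and 1 gene, Trdc, lower, with sums of 151 to 197 CPM against 18.0 to 30.8 CPM. The part of NK and γδ T cells in the results was not tested. The myeloid list had 5 of 7 tested genes higher in the graft and summed to 206 to 301 CPM there, against 68.9 to 125 CPM in the spleen. The B cell list, in which 5 of 8 tested genes were lower in the graft, summed to 353 to 646 CPM and 410 to 682 CPM. The erythroid and platelet list was not testable and reached 0.727 to 69.5 CPM in the graft and 1.15 to 4.62 CPM in the spleen. Of 20 genes of the kidney parenchyma, 9 genes were in both matrices and summed to 28.2 to 32.5 CPM in graft libraries and 2.42 to 4.13 CPM in spleen libraries. When every cell with a UMI of a wider set of other-cell markers was left out as well, 4342 genes were higher and 1252 genes were lower in the graft of 9498 tested. In sums over cells, fewer expressing cells and less RNA per cell cannot be told apart.

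UMIs were summed over the gated cells of each library, and edgeR's quasi-likelihood test compared the 5 graft with the 5 spleen libraries over 10278 genes, with plain library totals as the scaling and Benjamini-Hochberg adjustment (threshold 0.05). Of these genes 6672 genes (64.9%) differed. Of them, 5075 genes (49.4% of those tested) were higher in graft CD8+ T cells and 1597 genes (15.5%) were lower. The CPM of the libraries did not overlap between tissues for 5134 genes (50%). The split of directions depended on the scaling. Ribosomal protein genes took 27.3% ± 0.540 (SD, n = 5) of graft UMIs and 41.1% ± 0.727 (SD, n = 5) of spleen UMIs, and mitochondrial genes took 2.19% ± 0.129 and 4.39% ± 0.411. With these large families lower in the graft, the median gene lay 0.30 above 0 on the log2 scale under plain totals, 0.02 above under TMM factors, 0.01 above under DESeq2, and 0.07 below 0 when totals left out these and other large gene families. TMM factors gave 3048 genes higher and 2821 genes lower, DESeq2 gave 2917 and 2789, and the reduced totals gave 2574 and 3356. Under all 4 scalings 2566 genes (25%) were higher and 1595 genes (15.5%) were lower. The lists below are counted by these calls unless stated. The residency, naive, granule, cytokine, inhibitory receptor, and exhaustion factor lists, among others, hold genes that the study had named from these cells. The directions of these lists are therefore not independent evidence. Of the 92 ribosomal protein genes tested, 81 genes were lower under all 4 scalings, as were all 13 mitochondrial genes.

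**Figure D1:**
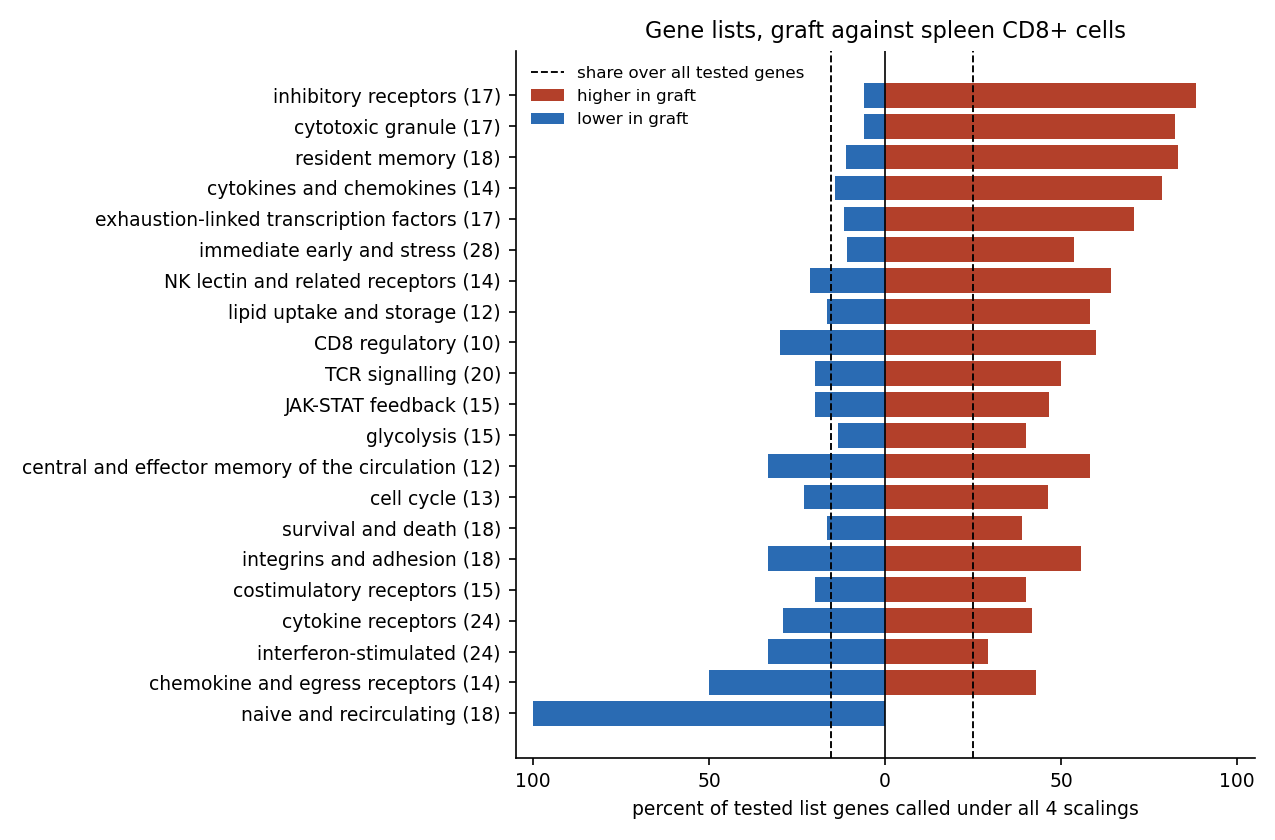
Share of the tested genes of each list (number in parentheses) that were higher (red, to the right) or lower (blue, to the left) in graft than in spleen CD8+ T cells under all 4 scalings, in percent. The dashed lines mark the shares over all 10278 genes tested, 25% higher and 15.5% lower, and the naive list is the one with no gene higher.

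Residency genes were higher in the graft. Of 18 genes linked to resident memory, all tested, 15 genes were higher and 2 genes were lower, with a median log2 difference of 3.92 against 0.30 over all genes. Itga1 (chr13:114953096-115101964 of GRCm38), the collagen-binding integrin CD49a, had 414, 401, 447, 399, and 409 CPM in the 5 graft libraries and 4.62, 2.84, 2.58, 4.23, and 2.87 CPM in the 5 spleen libraries. Its mean was 121-fold higher (log2 difference 6.89 ± 0.12 SE, edgeR adjusted p = 2.99e-20), and the lowest graft library lay far above the highest spleen library. Itgae (chr11:73090583-73147446), the E-cadherin-binding CD103, had 256, 252, 259, 228, and 224 CPM against 33.9, 27.9, 33.5, 32.6, and 25.8 CPM (log2 difference 2.98 ± 0.09, adjusted p = 4.54e-17). Cdh1, E-cadherin itself, was at 47.5 ± 2.43 CPM in these graft cells and 1.14 ± 1.15 CPM in spleen cells. Cxcr6, the receptor for CXCL16, was at 668 ± 49.6 CPM in the graft and 35.6 ± 5.55 CPM in the spleen. Runx3, a transcription factor of the cytotoxic lineage, was 2.82-fold higher and Rgs1, a brake on chemokine receptor signalling, was 18.2-fold higher. Zfp683 (Hobit), a factor of resident lymphocytes, was at 16.8 ± 2.97 CPM in the graft and had 1 UMI in the spleen libraries together, a ratio of 169 with a counting interval of 30.3 to 6700. The members that were lower were Cd69 and Crtam, both early activation genes. Cd69, which retains T cells in tissue by acting on S1PR1, had 342, 278, 302, 285, and 242 CPM in the graft and 243, 429, 468, 303, and 345 CPM in the spleen, with overlapping libraries (log2 difference −0.30 ± 0.13, edgeR adjusted p = 0.0445). Cd69 missed the threshold without 7 of the 10 libraries in turn (edgeR adjusted p up to 0.199) and with all cells of the matrices, and Crtam missed it after thinning (adjusted p = 0.455) and was at 0.11 with all cells.

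Integrins and homing receptors moved both ways. Among 18 tested integrin and adhesion genes 10 genes were higher and 6 genes were lower. The integrin chains Itgb1 and Itga4 were 8.39-fold and 2.93-fold higher, and Selplg, the P-selectin ligand, was at 458 ± 12.8 against 275 ± 6.99 CPM. Itgb7, the partner of CD103 and of the gut-homing integrin, was lower in the graft at 40.6 ± 2.94 against 175 ± 24.4 CPM, opposite to Itgae. Of 14 tested chemokine and egress receptors 6 genes were higher and 7 genes were lower. Cxcr3, a receptor for interferon-induced chemokines, was at 87.7 ± 11.6 CPM in the graft and 31.4 ± 1.90 CPM in the spleen. S1pr1 and Ccr7, which carry T cells out of tissue and into lymph nodes, fell.

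**Figure D2:**
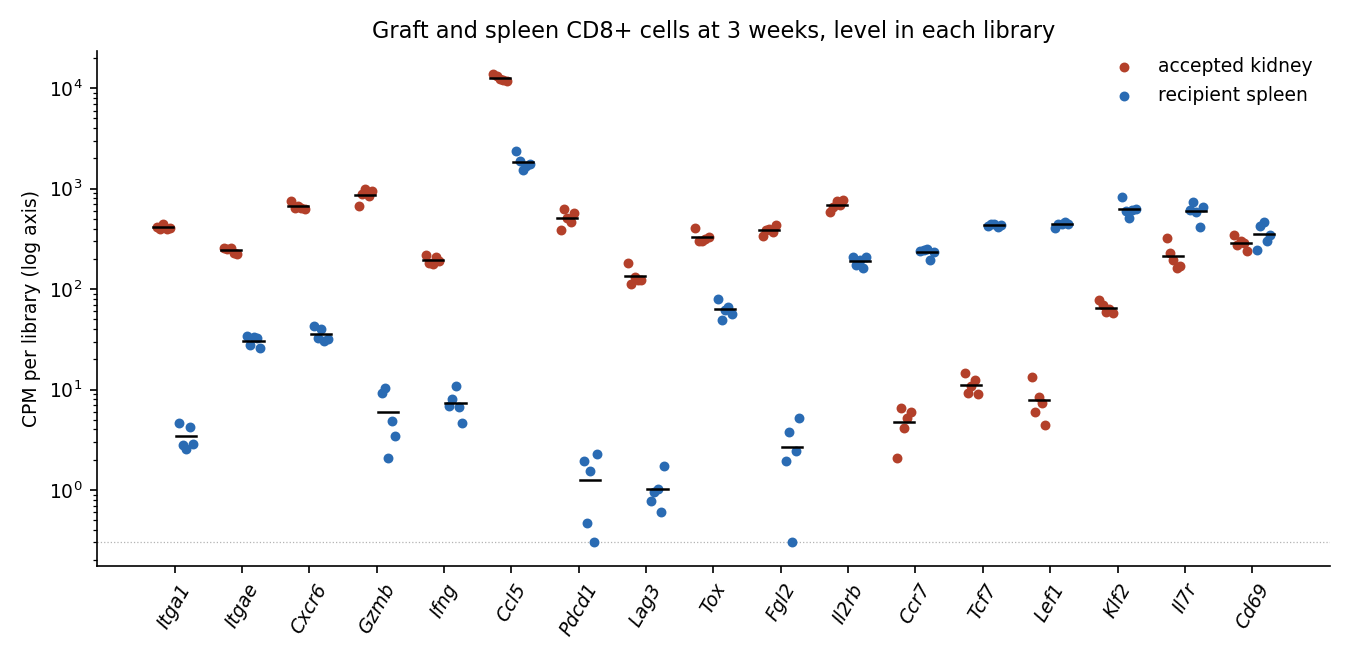
Level of 17 genes in each of the 5 graft (red) and 5 spleen (blue) libraries in CPM on a log axis, with black lines at the group means and values below 0.3 drawn at the dotted line. Only Cd69 had overlapping tissues among the genes drawn, which were chosen for display, and Pdcd1 and Fgl2 each had 1 spleen library at 0. Over all 10278 genes tested, the libraries of the tissues did not overlap for 50%.

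The naive and recirculating program was lower in the graft as a whole. All 18 genes of this list were tested and all 18 genes were lower under each of the 4 scalings, with a median log2 difference of −4.98. Tcf7 had 14.4, 9.22, 10.7, 12.3, and 9.05 CPM in graft libraries and 421, 448, 447, 420, and 438 CPM in spleen libraries (log2 difference −5.27 ± 0.10, edgeR adjusted p = 1.05e-19). Lef1 stood at 7.91 ± 3.38 against 443 ± 20.8 CPM, Ccr7 at 4.76 ± 1.75 against 231 ± 21.3 CPM, and S1pr1 at 8.55 ± 1.81 against 283 ± 27.9 CPM. No library of either tissue reached the range of the other for these genes. Klf2, which switches on S1pr1, and Satb1, a chromatin organizer of naive T cells, kept 65.5 ± 7.88 and 28.8 ± 6.78 CPM in the graft against 633 ± 115 and 514 ± 34.4 CPM. Il7r, the IL-7 receptor of naive and memory cells, and Foxp1, a quiescence factor, differed least of the genes named here, at log2 differences of −1.48 ± 0.16 and −1.40 ± 0.07.

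Cytotoxic granule genes were mostly higher in the graft. Of 17 tested genes 14 genes were higher under all 4 scalings and 1 gene was lower (median log2 difference 2.01, also with the gene that had no spleen UMI set at its bound). Gzmb (chr14:56258838-56262260), granzyme B, had 678, 889, 995, 838, and 939 CPM in the graft and 9.23, 10.4, 2.06, 4.83, and 3.44 CPM in the spleen, a 145-fold difference (log2 7.09 ± 0.18, edgeR adjusted p = 5.91e-18). Prf1, the pore-forming perforin, differed much less, at 132 ± 7.95 against 58.7 ± 7.90 CPM, or 2.25-fold. Gzma varied most between graft libraries, with 121, 151, 475, 227, and 270 CPM, against 18.1, 91.7, 7.22, 50.7, and 23.5 CPM in the spleen. Nkg7, a granule membrane protein, was 5.28-fold higher and Srgn, the granule proteoglycan, was 3.13-fold higher. Ctsw, a lysosomal protease, was at 763 ± 83.6 against 190 ± 24.9 CPM. Gzmc had 458 UMIs in the graft libraries together and none in the spleen libraries, which makes it at least 34.9-fold higher against a floor of 3 UMIs over the group. The exception was Gzmm, granzyme M, at 1.06 ± 0.284 CPM in the graft and 28.6 ± 4.88 CPM in the spleen (log2 difference −4.69 ± 0.20, adjusted p = 1.89e-14).

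Cytokine and chemokine genes followed the same direction. Of 20 listed genes 18 genes were in both matrices and 14 genes were tested, of which 11 genes were higher and 2 genes were lower. Ifng had 217, 180, 179, 210, and 189 CPM in the graft and 6.93, 8.03, 10.8, 6.65, and 4.59 CPM in the spleen (log2 difference 4.70 ± 0.13, edgeR adjusted p = 1.38e-17). Ccl5, a chemokine of effector and memory cells, was the most abundant of them at 12641 ± 843 CPM against 1848 ± 332 CPM. Ccl4 was 59.3-fold higher and Ccl3 was 61.2-fold higher, and Xcl1, which attracts cross-presenting dendritic cells, was 22.9-fold higher. The genes that were lower were Mif, at 200 ± 28.1 against 255 ± 25 CPM, and Lta, at 2.95 ± 0.802 against 5.97 ± 1.44 CPM. Mif missed the threshold after thinning (edgeR adjusted p = 0.0708) and Lta among cells with a Ccl5 UMI (adjusted p = 0.182). Il10, Il2, and Il4 were too low to be tested.

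Inhibitory receptors were nearly all higher in the graft. All 17 genes of the list were tested, and 15 genes were higher and 1 gene was lower, with a median log2 difference of 3.39. Pdcd1 (chr1:94038305-94052553) had 387, 627, 510, 461, and 574 CPM in graft libraries and 1.92, 0.473, 1.55, 0, and 2.30 CPM in spleen libraries (log2 difference 8.60 ± 0.23, edgeR adjusted p = 8.88e-18). Lag3 had 182, 114, 132, 123, and 124 CPM against 0.770, 0.945, 1.03, 0.604, and 1.72 CPM (log2 difference 7.05 ± 0.25, adjusted p = 7.48e-16), with the first graft library above the others. Cd244a, a SLAM family receptor, was at 153 ± 5.97 against 1.07 ± 0.823 CPM and Ctla4 at 126 ± 5.58 against 11.2 ± 5.04 CPM. Cd96, a receptor of the nectin family, was at 177 ± 18.2 against 65.0 ± 7.64 CPM. Havcr2 (TIM3) was low in level, at 26.8 ± 4.72 CPM, with 3 UMIs in the spleen libraries together (ratio 89.5, counting interval 30.6 to 435). Vsir was higher under plain totals but not under all 4 scalings, at 144 ± 8.97 against 117 ± 8.21 CPM. Btla was the member that was lower, at 4.98 ± 0.397 against 24.0 ± 3.08 CPM.

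Transcription factors linked to exhaustion had 12 of 17 genes higher and 2 genes lower. Tox had 404, 304, 299, 318, and 329 CPM in the graft and 79.7, 48.7, 62.4, 66.5, and 56.8 CPM in the spleen (log2 difference 2.39 ± 0.11, edgeR adjusted p = 7.59e-14). Nr4a2, an early response factor downstream of the T cell receptor, was 29.9-fold higher, and Id2, an inhibitor of E proteins, was 5.01-fold higher. Id3 and Eomes were lower. Eomes, a T-box factor of circulating memory cells, had 29.6, 14, 7.69, 9.05, and 9.37 CPM in the graft and 70.4, 41.6, 61.9, 61.0, and 41.9 CPM in the spleen, whereas Tbx21, the related factor T-bet, was at 65.9 ± 2.08 against 10.7 ± 2.02 CPM. Among 12 tested genes of circulating central and effector memory 7 genes were higher and 4 genes were lower, the latter including Ly6c2 at 59.4 ± 6.74 against 453 ± 38.6 CPM and Plac8 at 112 ± 22.5 against 155 ± 9.53 CPM. Plac8 missed the threshold after thinning to 1000 UMIs per cell (Plac8 log2 −0.31, edgeR adjusted p = 0.0605) and was at 0.12 with all cells of the matrices. Under plain totals alone, 8 genes of this list were higher and 4 genes lower, and the balance turned to 3 and 6 among cells with a Ccl5 UMI.

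Genes of regulatory CD8+ T cells did not move as one. Of 15 listed genes 10 genes were tested, and 6 genes were higher and 3 genes were lower under all 4 scalings (median log2 difference 0.79). The list holds genes that the study had named from these cells, so it is not independent evidence of its direction. Fgl2 (chr5:21372642-21378374) had 336, 387, 398, 374, and 438 CPM in the graft and 1.92, 3.78, 0, 2.42, and 5.16 CPM in the spleen (log2 difference 7.21 ± 0.19, edgeR adjusted p = 7.42e-18). Il2rb (chr15:78479256-78495271) had 580, 655, 754, 683, and 764 CPM against 208, 173, 193, 161, and 208 CPM (log2 difference 1.86 ± 0.09, adjusted p = 8.57e-14). Bcl2, which protects from apoptosis, and Btg1, an antiproliferative gene, were 1.65-fold and 1.5-fold higher. The members that were lower were receptors of the Ly49 family, which bind MHC class I, such as Klra7 at 2.77 ± 0.313 against 20 ± 7.83 CPM and Klra6 at 0.620 ± 0.302 against 10.5 ± 3.79 CPM. Ly49 genes are close copies of each other, so UMIs may be split among them. Foxp3 was not tested, at 1.00 ± 0.367 CPM in the graft and 0.501 ± 0.635 CPM in the spleen, and neither was Fcgr2b, the FGL2 receptor, at 0.910 ± 0.549 and 1.47 ± 0.862 CPM.

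NK-type receptors and their adaptors were mostly higher in the graft. Of 14 tested genes 9 genes were higher and 3 genes, Klra1, Klra6, and Klra7 of the Ly49 family, were lower. Klra3 of the same family was higher under plain totals but not under all 4 scalings. Klrc1, the inhibitory NKG2A chain that binds nonclassical class I, had 194, 196, 176, 159, and 210 CPM in the graft and 11.2, 18.0, 11.3, 10.3, and 16.1 CPM in the spleen (log2 difference 3.81 ± 0.13, edgeR adjusted p = 3e-16). Its partner Klrd1 (CD94) was 1.82-fold higher. Fcer1g, a signalling adaptor, had 301, 432, 639, 620, and 505 CPM against 4.62, 10.9, 4.64, 16.9, and 8.61 CPM, and Hcst (DAP10), the adaptor of NKG2D, was at 847 ± 70.1 against 428 ± 50.1 CPM. A γ chain constant gene of the other T cell receptor lineage, Tcrg-C2, was 24.0-fold higher in the graft while the δ constant gene Trdc, which marks γδ T cells, was lower at 5.12 ± 1.98 against 15.3 ± 3.52 CPM.

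T cell receptor signalling genes were higher in 10 and lower in 4 of 20 tested genes. Cd3g and Cd3e were 4.56-fold and 3.45-fold higher, and Ptpn22, a phosphatase that dampens the receptor, was at 469 ± 38.5 against 171 ± 14.5 CPM. Txk and Prkcq, a kinase of the Tec family and protein kinase C theta, were lower at log2 differences of −1.74 ± 0.09 and −1.17 ± 0.08. Costimulatory receptors had 6 of 15 genes higher and 3 genes lower, with Cd7 at 304 ± 60.8 against 68.3 ± 10.8 CPM and Slamf6, a marker of stem-like T cells, at 8.70 ± 2.25 against 151 ± 11.1 CPM. Among 24 tested cytokine receptors 10 genes were higher and 7 genes were lower. Interferon-γ receptor chain Ifngr1 was at 497 ± 126 against 206 ± 29.0 CPM, Il21r at 194 ± 16.7 against 61.6 ± 8.99 CPM, and Il27ra at 26.8 ± 7.56 against 82.7 ± 17.8 CPM. Interferon-stimulated genes, with 7 of 24 tested genes higher and 8 genes lower, lay near the background on the higher side. Among them the immunoproteasome gene Psmb8 was at 718 ± 44.2 against 492 ± 27.7 CPM.

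Cell cycle genes moved both ways. Of 20 cell cycle genes 13 genes were tested, and 6 genes were higher and 3 genes were lower. Mki67 was at 20.4 ± 2.74 against 2.26 ± 1.5 CPM and Top2a at 42.6 ± 4.43 against 7.76 ± 1.39 CPM. Stmn1, a tubulin-binding protein of dividing cells, was lower at 13.2 ± 2.99 against 19.3 ± 3.93 CPM (log2 difference −0.53 ± 0.18, edgeR adjusted p = 0.0143), with overlapping libraries, but missed the threshold without the second spleen library (log2 −0.45, adjusted p = 0.0558), after thinning to 1000 UMIs (−0.43, adjusted p = 0.174), and without cells that had other-cell markers (−0.39, adjusted p = 0.125). Birc5 and Pclaf were too low to be tested. Nme2, a nucleoside diphosphate kinase, was at 457 ± 15.9 against 961 ± 57.1 CPM.

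The HSP70 genes Hspa1b and Hspa1a had the largest ratios of all genes past the level required for naming (100 CPM in a tissue). Hspa1b (chr17:34956436-34959238), an inducible HSP70 gene, had 1022, 702, 639, 675, and 902 CPM in the graft and 2 UMIs in the spleen libraries together (ratio 3999, counting interval 1107 to 33023). Hspa1a had 777, 493, 503, 507, and 666 CPM in the graft and also 2 UMIs in the spleen (ratio 2998, interval 830 to 24760). The sequences of both are nearly identical, so their UMIs may be exchanged. Of 28 immediate early and stress genes 15 genes were higher and 3 genes were lower. Hsp90aa1, Dnajb1, and Jun were at 885 ± 129, 345 ± 56.1, and 792 ± 73.0 CPM against 389 ± 54.6, 71.1 ± 11.8, and 269 ± 37.6 CPM, while Fos was higher under plain totals but not under all 4 scalings (log2 difference 0.60 ± 0.13). Nfkbia, the inhibitor of NF-κB, was lower at 116 ± 7.99 against 183 ± 29.7 CPM. Enzymatic digestion was applied to the graft alone, and its part in these differences was not tested.

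The other genes with the largest ratios were Gm156 and the immediate early gene relative Ier5l, followed by Pdcd1, Cd244a, Fgl2, Gzmb, Lag3, Itga1, Osgin1, Litaf, 2900026A02Rik, Ccl3, and Ccl4. Gm156 had 161, 140, 179, 147, and 205 CPM in the graft and 3 UMIs, all in 1 library, in the spleen (ratio 562, counting interval 192 to 2727). Ier5l was at 320 ± 58.0 against 0.567 ± 0.357 CPM. The genes with the smallest ratios were led by Dapl1 and Nsg2, both known from naive T cells, at 1.72 ± 0.764 against 411 ± 60.4 CPM and 0.989 ± 0.312 against 111 ± 12.3 CPM. Lef1, Ccr7, Tcf7, Cmah, S1pr1, Klf3, Satb1, Slamf6, Sidt1, Rflnb, Rasgrp2, and Gm2682 followed. Each of these genes kept its call under all 4 scalings. They were picked for the size of their ratios among called genes, so this adds no evidence.

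Since many spleen cells carried naive genes, the comparison was repeated among cells with a UMI of Ccl5, a gene known from antigen-experienced cells. A UMI does not prove expression, since at 1000 UMIs per cell Ccl5 was found in 1.04% of the B cells and 8.60% of the myeloid cells (of naive spleen and of rejecting kidney), against 95.8% of graft and 23.1% of spleen CD8+ T cells. The cells were not thinned for this choice, and spleen cells were deeper. Such cells were 97.9% ± 0.466 (SD, n = 5) of graft cells and 28.8% ± 2.21 (SD, n = 5) of spleen cells, that is 17916 graft cells and 667 spleen cells with 102 to 157 in each spleen library. Of 9931 genes tested 4058 genes (40.9%) were higher and 1123 genes (11.3%) were lower in the graft under plain totals. Of the 5075 genes higher among all gated cells, 5006 genes could be tested again, and 3858 genes were higher and 9 genes were lower here. Of the 1597 genes that were lower, 1457 genes could be tested, and 1028 genes were lower and 4 genes were higher. The graft cells of both comparisons are nearly the same, so these counts are not independent.

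Among Ccl5+ cells the log2 differences of Pdcd1, Lag3, Gzmb, Fgl2, and Itga1 were smaller than among all gated cells, at 7.01 for Pdcd1, 5.79 for Lag3, 5.71 for Gzmb, 5.62 for Fgl2, and 5.29 for Itga1 (edgeR adjusted p = 2.6e-13 for Lag3 and lower for the others). Il2rb went from 1.86 to 0.72 (edgeR adjusted p = 3.4e-07), and Bcl2 from 0.72 to 0.27 (edgeR adjusted p = 0.0025). Itgae went the other way, from 2.98 to 5.08. Cxcr3, higher among all gated cells, was at 0.20 and did not pass (adjusted p = 0.17). Tcf7 and Klf2 stood at −5.27 and −3.23, close to their values among all cells. Of the lists, cytotoxic granule genes had 16 of 17 genes higher and 1 gene lower under plain totals, and naive genes had 17 of 17 tested genes lower. NK-type receptors went from 10 genes higher and 3 genes lower of 14 among all gated cells under plain totals to 7 and 6. The balance turned for 12 tested genes of circulating central and effector memory, from 8 higher and 4 lower to 3 and 6, and chemokine and egress receptors went from 7 and 7 of 14 to 4 and 8.

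**Figure D3:**
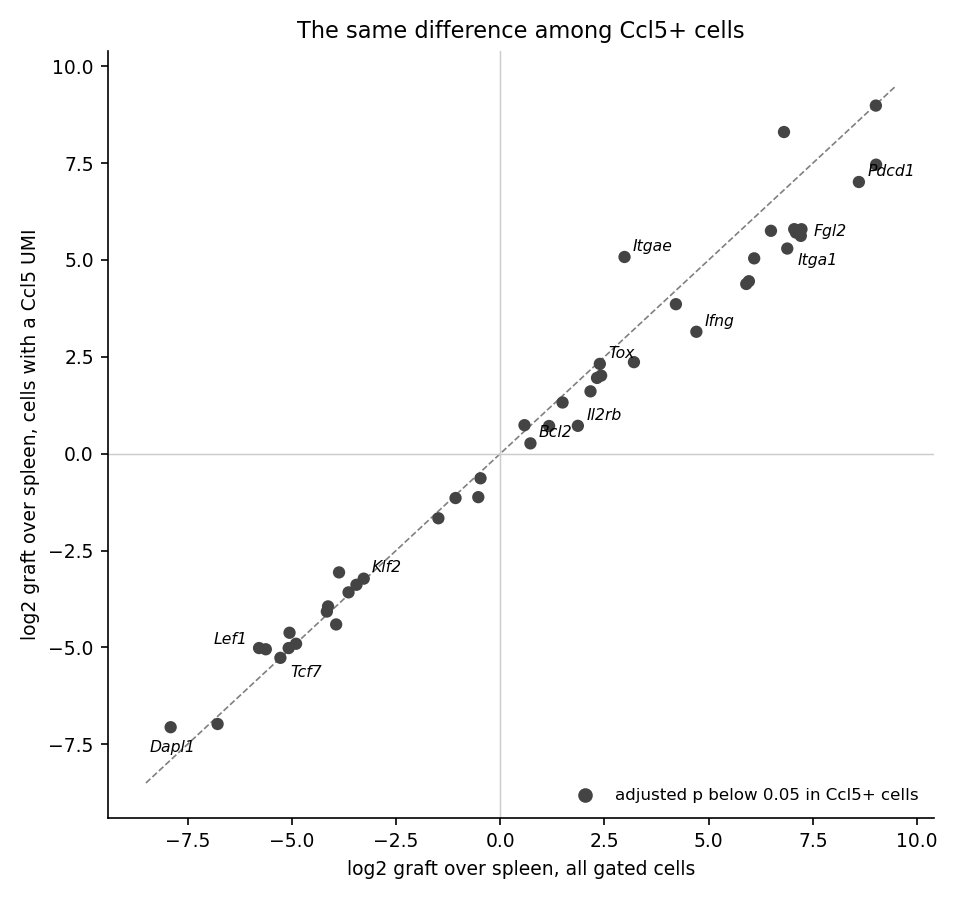
Log2 difference of graft over spleen among cells with a Ccl5 UMI (vertical) against that among all gated cells (horizontal) for 45 named genes, without Ccl5 and the pair of HSP70 genes, with the dashed line at equal values. All 45 genes had the same sign in both, and Itgae lies above the line while Il2rb lies below it. Many of the genes were picked for extreme values on the horizontal axis, so the shared sign is not independent evidence. Cx3cr1, Klra3, Zeb2, and Stat5b, which turned sign among these cells, are not drawn, and the graft cells of both axes are nearly the same.

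Shares of cells were counted after each cell was thinned to 1000 UMIs, since spleen cells were deeper, and this left out 4 spleen cells and 0 graft cells. A cell counted for a program when it had UMIs of at least 2 of its genes. Intervals are exact Clopper-Pearson intervals at 95% and cover counting error only. The share of cells with the naive program, at least 2 of 6 naive genes such as Ccr7, Lef1, and Tcf7, was 0.515% ± 0.105 (SD, n = 5) in the graft and 57.9% ± 2.12 (SD, n = 5) in the spleen. B cells of naive spleen, which use some of these genes too, reached 28.5% and myeloid cells of rejecting kidney 1.31%. Klf2 alone was found in 49.6% of these B cells and 7.44% of these myeloid cells. The graft share lay below both populations, which does not tell whether it is background. The difference of −57.4 percentage points passed the exact permutation test (two-sided, p = 0.007937, the smallest that 5 against 5 libraries allow), as did those of the other programs at the same p, also after adjustment over the 6 shares. Without thinning the difference was −94.97 percentage points. All programs but the circulating effector program hold genes that the study had named from these cells. Their p-values are therefore not independent evidence of direction.

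At least 2 of the residency genes Itgae, Itga1, and Cxcr6 were found in 25.7%, 23.6%, 24.8%, 24.6%, and 22.2% of the cells of the 5 graft libraries. In the spleen 3 of 2320 cells met this (0.129%, interval 0.0267% to 0.377%). No B cell of 26744 cells and no myeloid cell of 5432 cells did, which allows shares of up to 0.0112% and 0.0552%. The B cells and myeloid cells come from other libraries, so their shares do not measure false detection in the 3-week libraries. At least 2 of the receptors Pdcd1, Lag3, Havcr2, Tigit, and Ctla4 were found in 11.6% ± 1.13 (SD, n = 5) of graft cells and in 2 of 2320 spleen cells (0.0862%, interval 0.0104% to 0.311%), against 0 of 26744 B cells and 0.221% of myeloid cells, of which 15.9% had UMIs of Havcr2. The pair of Fgl2 and Il2rb was found together in 13.7% ± 1.47 (SD, n = 5) of graft cells and in 5 of 2320 spleen cells (0.216%, interval 0.0700% to 0.502%), against 0.00748% of B cells and 0.0552% of myeloid cells. At least 2 of Gzma, Gzmb, Gzmk, and Prf1 were found in 8.03% ± 0.826 (SD, n = 5) of graft cells and in 13 spleen cells (0.560%, interval 0.299% to 0.956%), against 0.198% of B cells and 0.129% of myeloid cells. Unthinned, the differences of these 4 shares were 52.2, 33.5, 36.8, and 17.7 percentage points. The size of a share also moved with the number of genes required. The difference in the share of cells with the residency program was 63.3 percentage points with 1 gene and 3.60 with 3 genes, that in the share of cells with the inhibitory receptor program 50.4 and 1.34, and that in the share of cells with the cytotoxic program 38.1 and 0.505. For the share of cells with the regulatory pair it was 46.8 with 1 gene.

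The circulating effector genes Cx3cr1, Klrg1, S1pr5, and Zeb2 were rarely found together. At least 2 of them were found in 10 of 18304 graft cells (0.0546%, interval 0.0262% to 0.100%) and 17 of 2320 spleen cells (0.733%, interval 0.427% to 1.17%). Shares in the spleen libraries were 0.821%, 0.407%, 0.186%, 0.568%, and 1.77%, and without the fifth library the difference was −0.44 rather than −0.70 percentage points. Myeloid cells, which use Cx3cr1 and Zeb2, reached 7.57%. B cells, of which 11.65% had UMIs of Zeb2, reached 0.0935%. These values do not tell whether the graft share is background, and no difference in expression is read from the shares. With 1 gene instead of 2 genes required the direction turned, to 2.50 percentage points more in the graft (exact permutation p = 0.007937).

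**Figure D4:**
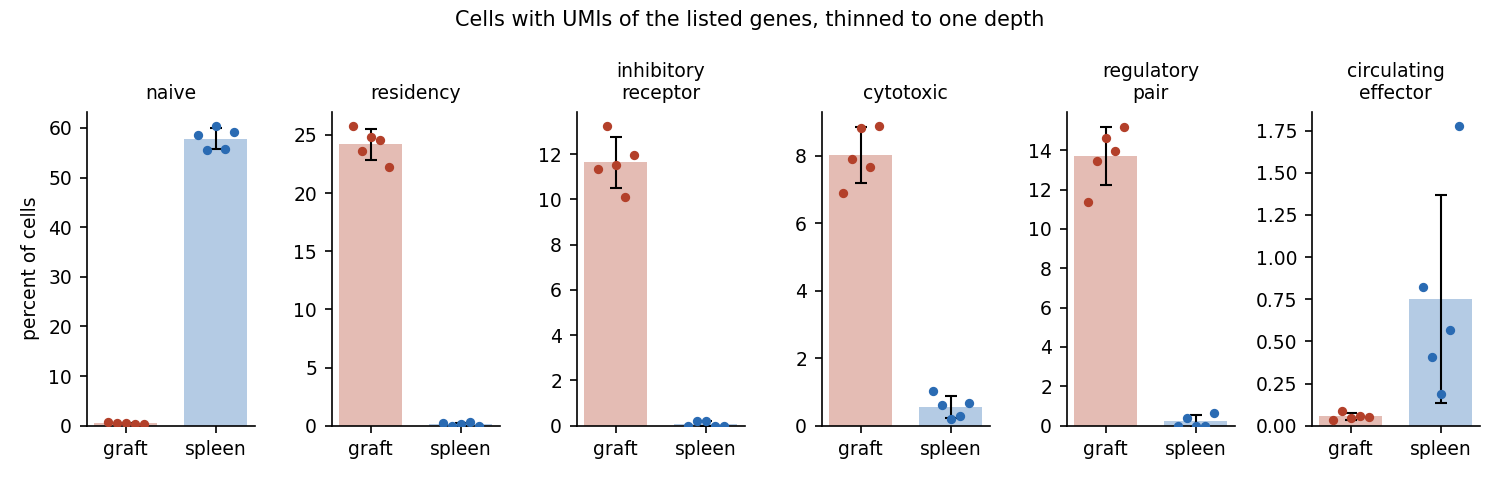
Percent of cells that met each program after thinning to 1000 UMIs, as points for the 5 graft (red) and 5 spleen (blue) libraries, bars for the mean, and error bars for the SD, with an axis of its own for each program. The libraries of the tissues do not overlap in any of the 6 programs.

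Within the graft the programs overlapped in part, as a description of cells that share libraries. Among the 4415 cells with the residency program 9.77% ± 1.44 (SD, n = 5) also had the inhibitory receptor program, against 12.2% ± 1.08 of the other graft cells, and 10.9% ± 2.21 also had the cytotoxic program, against 7.12% ± 0.587. Among the 2129 cells with the inhibitory receptor program 15.1% ± 1.94 had UMIs of Fgl2 and Il2rb, against 13.5% ± 1.41 of the others, and 7.07% ± 0.748 had the cytotoxic program, against 8.16% ± 0.932. The libraries overlapped narrowly for the cytotoxic share by residency (7.98% to 14.1% inside and 6.53% to 8.08% outside). Among single genes at this depth, UMIs were found of Gzmb in 35.8% ± 2.83 of graft and 0.706% ± 0.570 of spleen cells, of Pdcd1 in 37.4% ± 6.05 and 0.241% ± 0.162, of Fgl2 in 29.4% ± 1.88 and 0.495% ± 0.480, and of Hspa1a in 29.6% ± 4.74 and 0.0407% ± 0.0911. B cells had UMIs of these genes in 0.0897%, 0.00748%, 0.183%, and 0.553% of cells. Myeloid cells had UMIs of Gzmb in 0.828%, of Pdcd1 in 0.405%, of Fgl2, which is also a myeloid gene, in 34.3%, and of Hspa1a in 9.87% of cells.

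The same graft and spleen comparison at 1 week, with 3 library tags of each tissue, was used to ask which differences changed between the time points. The same gate kept 11542 graft and 4069 spleen cells at 1 week. An interaction of tissue and week was tested by edgeR over 11432 genes. It called 3050 genes (26.7%), but 1071 of 9609 genes tested after thinning to 1000 UMIs per cell, with 655 higher and 416 lower, and 4939 genes with all cells of the matrices. The difference between graft and spleen was higher at 3 weeks than at 1 week for 2061 genes (18%) and lower for 989 genes (8.65%), and under plain totals, TMM factors, and DESeq2 alike for 1101 genes (9.63%) and 989 genes (8.65%). The balance turned with the scaling, since TMM factors gave 1260 genes higher and 1656 genes lower and DESeq2 gave 1130 and 1780. The median interaction was 0.19 under plain totals. The naive list had 13 of 18 genes with a lower and none with a higher difference at 3 weeks under these 3 scalings. Inhibitory receptors and cytotoxic granule genes had 9 of 17 genes each with a higher difference, and glycolysis and cell cycle genes had 9 of 16 and 8 of 20 genes with a lower one.

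The tissues contributed differently to these interactions. Tcf7 was at 92.5 ± 17 CPM (SD, n = 3) in the graft at 1 week and 11.2 ± 2.27 CPM at 3 weeks, while the spleen held 360 ± 10.3 and 435 ± 13.4 CPM. Its difference went from −1.96 to −5.28 on the log2 scale (interaction −3.31 ± 0.16, edgeR adjusted p = 3.86e-13). Dapl1, Ccr7, Slamf6, Nsg2, S1pr1, and Cmah were also among the 8 lowest interactions of genes with at least 100 CPM in a tissue at either week. Gzmb was close in the graft at both times, at 762 ± 75.1 and 868 ± 121 CPM, but was at 65.3 ± 39.0 CPM in the spleen at 1 week and 5.99 ± 3.65 CPM at 3 weeks (interaction 3.60 ± 0.40, adjusted p = 5.8e-07). Itga1 and Fgl2 were higher in the graft at 3 weeks, at 414 and 387 CPM against 52.7 ± 17.5 and 77.5 ± 20.3 CPM at 1 week, and lower in the spleen. S100a4, a calcium-binding protein of effector and memory cells, was at 1939 ± 427 CPM in the graft at 1 week and 1836 CPM at 3 weeks, and at 471 ± 150 and 33.1 CPM in the spleen. Ifitm1, Gm156, Lag3, and Cd244a completed the 8 highest interactions by the same limit. Ifitm1 stood at 171 ± 36.4 CPM in the graft at 1 week and only 26.6 ± 9.84 CPM at 3 weeks. In the spleen it was at 88.2 ± 35.3 CPM at 1 week and near the floor at 3 weeks, at 0.198 ± 0.271 CPM. Its ratio at 3 weeks thus rests on a few spleen UMIs.

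Direction turned for Bcl2. It was lower in the graft at 1 week, at 122 ± 27.8 against 276 ± 32.2 CPM, and higher at 3 weeks, at 842 ± 56.9 against 509 ± 39.7 CPM (interaction 1.90 ± 0.16, edgeR adjusted p = 7.67e-09). Stmn1 was at 639 ± 212 against 151 ± 79.2 CPM at 1 week and at 13.2 ± 2.99 against 19.3 ± 3.93 CPM at 3 weeks (interaction −2.58 ± 0.39, edgeR adjusted p = 3.31e-05), and its 3-week difference did not pass in this fit (adjusted p = 0.129). Mki67 and Top2a stood at 285 ± 119 and 304 ± 115 CPM in the graft at 1 week, and their ratio between tissues did not pass the test of a difference (interactions 1.10 ± 0.68 and 0.31 ± 0.45, adjusted p = 0.241 and 0.642). Tox did not pass either (interaction 0.40 ± 0.18, adjusted p = 0.103). Week and library preparation cannot be told apart in this comparison.

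**Figure D5:**
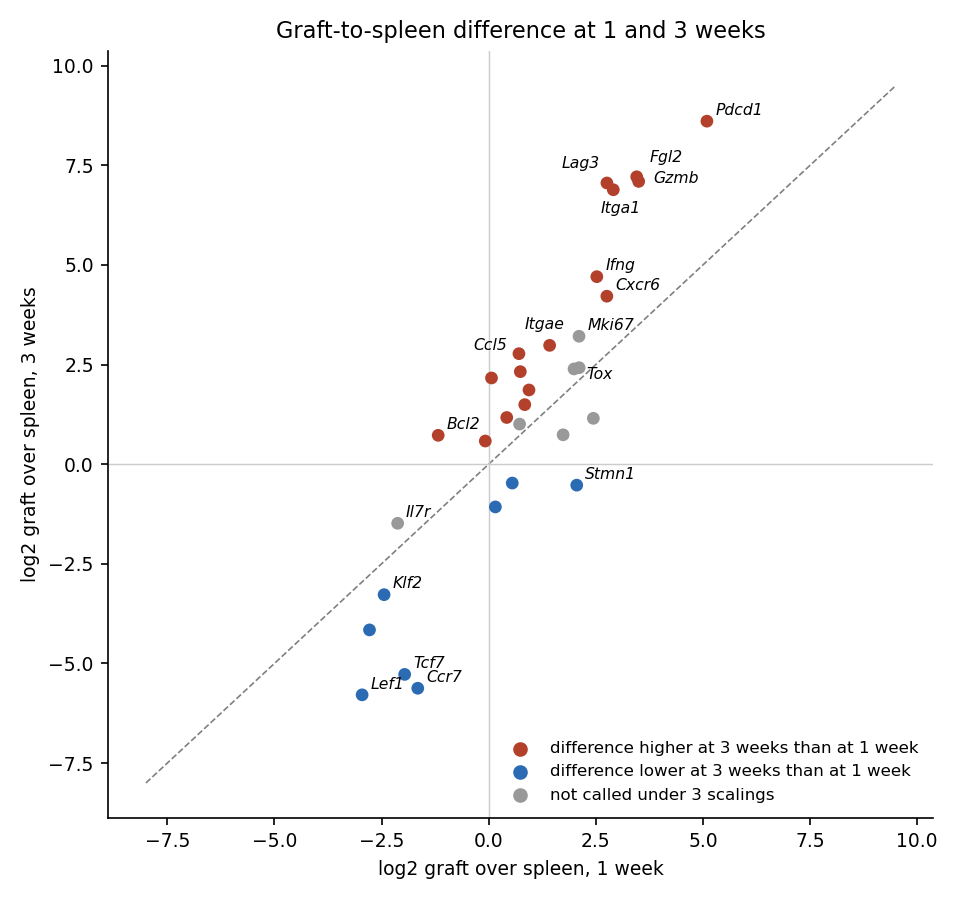
Log2 difference of graft over spleen at 3 weeks (vertical) against 1 week (horizontal) for 31 genes that the study names for CD8+ T cells, with the dashed line at equal differences. Under the 3 scalings 16 genes had a higher (red) and 8 genes a lower (blue) difference at 3 weeks, and 7 genes (grey) did not pass in all of them.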

How the data were processed

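The authors deposited matrices of UMI counts of annotated CD8+ T cells or of all CD45+ cells of a tissue, some of which join several time points, made with Cell Ranger (version not given in the sources used here) on mm10 and filtered in Seurat by UMIs, genes, and mitochondrial share. These counts were used as deposited. The start of each barcode gave the library tag. After the gate, counts were summed per tag over the 17327 genes present in both 3-week matrices (16729 genes for the 4 matrices of both weeks), and genes were kept by filterByExpr. Coordinates are those of GENCODE M21 on GRCm38, in which 98.55% of symbols were found. CPM are not corrected for length.

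Tests were edgeR 4.0.16 quasi-likelihood fits (limma 3.58.1, R 4.3.3) with Benjamini-Hochberg adjustment, and exact two-sided permutation tests (scipy 1.17.1) for shares of cells. The SE is the log2 difference divided by the square root of the F statistic. Scripts were tested on simulated data with 200 changed genes. Doublets were not called beyond the gate. Background shares come from 26826 B cells of naive spleen and 5432 myeloid cells of rejecting kidney.

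Alternatives were TMM, DESeq2 1.42.0, reduced totals, other low-count filters, other cell gates, thinning, centring within groups of intron length, a replicate block, and leaving out each library.

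Named genes were those the study names for CD8+ T cells, the 15 highest and 15 lowest ratios with at least 100 CPM in a tissue, up to 4 abundant called members and 2 opposite ones per list, and the 8 highest and 8 lowest interactions with at least 100 CPM in a tissue at either week. Other genes were named for their roles after their values were seen. The members and lists were chosen with earlier results of these data known. Donor and recipient cells were not separated. A few genes that these rules name are not reported here.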

Additional observations from a re-analysis of the deposited data

Results flagged for a closer look

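In 110 sets of 5 libraries tested for a value far from the rest by Dixon's criterion, 4 sets had one, and chance alone gives about 1 in 20. Lag3 and Tox were high in the first graft library, at 182 and 404.5 CPM against 113.6 to 131.7 and 299.4 to 329.1 CPM in the others. That library also had the deepest graft cells, and the part of depth was not tested. Hspa1b was at 0.7696 CPM in the first spleen library and 0 in the others, and Gm156 at 1.721 CPM in the fifth spleen library and 0 in the others, which are counts of a few UMIs.

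The log2 difference between graft and spleen changed from 1 week to 3 weeks for the 33 genes listed here. The rule was the interaction of tissue and week under 3 scalings (edgeR, adjusted p under 0.05). The listed genes are ones that the study names or ones with the highest or lowest interactions. Other genes named in the results also passed this rule, such as Ccl4 (2.03), Rgs1 (1.46), Ly6c2 (−2.30), and Btla (−1.87). Among the listed granule and cytokine genes the log2 difference rose by 3.60 for Gzmb, 0.75 for Prf1, 2.18 for Ifng, and 2.07 for Ccl5. Among inhibitory receptor genes it rose by 3.52 for Pdcd1, 4.30 for Lag3, and 3.57 for Cd244a. A rise of this difference can come from either tissue. Lag3 was at 81.5 CPM in the graft at 1 week and 135 CPM at 3 weeks. In the spleen Lag3 was at 11.8 CPM at 1 week and near the floor at 3 weeks, at 1.01 CPM. Pdcd1 and Cd244a were also near the floor in the spleen at 3 weeks. Among residency genes it rose by 3.98 for Itga1, 1.56 for Itgae, 1.46 for Cxcr6, and 0.65 for Runx3. It rose by 3.76 for Fgl2, 0.92 for Il2rb, 0.66 for Btg1, 1.58 for Id2, 2.10 for Cd7, 5.97 for Ifitm1, 4.84 for Gm156, and 3.74 for S100a4. For Bcl2 it rose by 1.90, from −1.18 to 0.72, and so turned direction.

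It changed by −2.83 for Lef1, −0.83 for Klf2, −1.38 for Satb1, −3.31 for Tcf7, −3.97 for Ccr7, −5.53 for Dapl1, −3.33 for Slamf6, −3.29 for Nsg2, −3.14 for S1pr1, and −3.08 for Cmah. It changed by −2.58 for Stmn1, from 2.05 to −0.53, by −1.02 for Plac8, from 0.55 to −0.47, and by −1.23 for Nme2, from 0.16 to −1.07. No turn of direction is read from these signs. The 1-week value of Nme2 and the 3-week value of Stmn1 did not pass in this fit (edgeR adjusted p = 0.201 for Nme2 and 0.129 for Stmn1). At 3 weeks alone Plac8 was at 0.12 with all cells of the matrices and lost its call after thinning, and Stmn1 lost its call after thinning, without the second spleen library, and without cells that had other-cell markers. In the spleen, Gzmb was at 65.3 CPM at 1 week and 5.99 CPM at 3 weeks, and Mki67 at 63.8 and 2.26 CPM. Ifitm1 was at 88.2 and 0.198 CPM there, and at 171 and 26.6 CPM in the graft. The weeks were not tested within a tissue.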

How the results depend on the processing

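In place of 5075 genes higher and 1597 genes lower in graft CD8+ T cells, TMM factors gave 3048 and 2821, DESeq2 gave 2917 and 2789, totals without large gene families gave 2574 and 3356, and centring within 10 groups of intron length gave 2997 and 2892. That centring also took out the median common to all groups, which lay between 0.22 and 0.35 in each, so no part of its effect is credited to intron length. Cells thinned to 1000 UMIs gave 3236 and 953 of 8656 genes tested. Leaving out each library gave 4626 to 5182 genes higher and 1422 to 1650 genes lower. The interaction with week called 3050 genes, but 4939 genes with all cells of the matrices and 1071 genes after thinning, and 2475 to 3207 genes without each library. TMM factors called 2916 genes and DESeq2 2910 genes there. The circulating effector share turned from −0.70 to 2.50 percentage points when 1 gene was required (exact permutation p = 0.007937), and lay between −0.84 and −0.44 without each library. Of 121 genes named here and tested, the genes of the gate aside, 106 genes kept direction and call in each of the 21 alternatives that could test them. The exceptions were Stmn1, Cd69, Cxcr3, Fos, Ldha, Lta, Mif, Stat5a, and 7 genes that turned, and the cause was not tested. Crtam turned to 0.11 and Plac8 to 0.12 with all cells, Vsir to −0.067 with totals without large gene families, and Cx3cr1 to −0.72, Klra3 to −0.67, Zeb2 to −0.24, and Stat5b to 0.39 among cells with a Ccl5 UMI. A replicate block by tag number gave 5251 genes higher and 1659 genes lower and kept 6638 of 6672 calls. Same-numbered graft and spleen libraries deviated together with correlations of 0.374, 0.106, 0.0682, 0.0907, and 0.0644, and 3 of 5 graft libraries correlated best with their own number. The labels do not say whether equal numbers mark the same mouse, so the main test took the libraries as unpaired. Spleen libraries of 1655201 to 2598832 UMIs limit genes near 0 there, whose ratios rest on a few UMIs.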

Other observations

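Genes of lipid uptake and storage had 7 of 12 tested genes higher and 2 genes lower in graft CD8+ T cells under all 4 scalings. Dgat1, which makes triglycerides, was at 51.0 ± 8.45 CPM in the graft and 5.07 ± 1.53 CPM in the spleen (SD, n = 5 each). Glycolysis genes had 6 of 15 genes higher and 2 genes lower, and these were Eno1 and Ldha, of which Ldha missed the threshold after thinning (edgeR adjusted p = 0.498). Survival and death genes had 7 of 18 genes higher and 3 genes lower. Over all 10278 genes tested, 25% were higher and 15.5% were lower under all 4 scalings. No result is read from the list counts of this section. Bcl2l11 (BIM), which promotes apoptosis, was at 261 ± 32.1 against 59.7 ± 8.03 CPM. Bbc3 and Fas, which also promote apoptosis, were lower.

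JAK-STAT signalling and feedback genes had 7 of 15 genes higher and 3 genes lower. Cish, a feedback inhibitor of STAT5 signalling, was at 199 ± 19.1 against 7.57 ± 2.79 CPM, whereas Stat5a and Stat5b did not pass the test under plain totals but were lower under TMM factors (log2 −0.47 and −0.39). The endothelium and stroma list, with 1 tested gene in each direction, summed to 19.1 to 24.1 CPM in the graft and 67.6 to 76.7 CPM in the spleen, mostly through Pecam1, which T cells also express. The plasma cell list had 2 of 3 tested genes higher and reached 65.6 to 75.5 CPM against 23.9 to 37.1 CPM, and the CD4+ T cell list, without Cd4, reached 6.78 to 9.20 CPM against 5.20 to 10.9 CPM.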
